A study of Rattus norvegicus with 24 samples.

Results

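The genes described here carry fatty acids into the muscle fiber and oxidize them in its mitochondria. The 10 genes were chosen by name, with earlier results of these data known: Cpt1b, Cd36, Acadl, Acadm, Acadvl, Hadha, Hadhb, Fabp3, Lpl and Ucp3. Transcript values were summed per gene, and 9 of the 10 genes were analysed, of 15273 genes in all. Cd36 was not analysed here.

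The samples were tibialis anterior muscles of 12 adult male Wistar rats, with 3 rats at each of 2, 10, 20 and 30 days of training. A pulse generator implanted in the abdomen stimulated the nerves of the left hind limb once a day, so that the left tibialis anterior worked against the co-contracting calf muscles. This scheme is called SpillOver resistance training. The right muscle of the same rat was not stimulated and served as the contralateral control, although it belonged to an animal that trained the other limb. Muscles were taken 1 h after the last bout, so the response to that bout and the response to the days before it cannot be told apart. The 12 contralateral muscles formed 1 control group, and the 4 comparisons of trained with contralateral muscles share it.

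Lipoprotein lipase (Lpl) acts at the capillary wall, where it frees fatty acids from circulating triglyceride. Heart-type fatty acid binding protein (Fabp3) carries them through the cytosol. Carnitine palmitoyltransferase 1B (Cpt1b) sits in the outer mitochondrial membrane and makes the acylcarnitines by which long chains enter the mitochondrion, the step at which oxidation is controlled in muscle. Acyl-CoA dehydrogenases open each round of beta-oxidation and differ in the chain length they accept, from very long (Acadvl) and long (Acadl) to medium (Acadm). The mitochondrial trifunctional protein, made of the subunits Hadha and Hadhb, completes the round for long chains. Uncoupling protein 3 (Ucp3) is a carrier of the inner mitochondrial membrane whose mRNA in muscle is known to follow the supply of fatty acids. Oxidative fibers are rich in this machinery, and the rat tibialis anterior is mainly a fast muscle.

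The deposited values are of the TPM type, scaled for transcript length to the same total in every muscle. They do not keep the depth of each library, or the precision of low values that goes with it. They were divided here by a factor per muscle between 0.778 and 1.137, and all values below are on this rescaled TPM-type scale. Because the values are per length, levels can be compared between genes. Fold changes are differences of log2(value + 1), fitted with limma over 11196 genes, and a gene was called at a Benjamini-Hochberg adjusted p under 0.05. Errors of fold changes are standard errors. Of the 9 skeletal muscle markers, 7 were in the table, and their summed value was 73000 to 89490 in the controls and 58110 to 98020 in the trained muscles. In the 3 trained muscles of 2 days it was 70940 to 72370, below every control. At 2 days 3 of the 7 (Mb, Pvalb and Tnnt3) were called lower, against 13.5% of all genes. At 10, 20 and 30 days 3, 3 and 2 of the 7 markers were called lower and 3, 1 and 1 higher. Their part in the results was not tested. Protein-coding mRNAs of the mitochondrial genome made up 23.4% to 43.9% of the deposited total, with 23.4% to 28.5% in the trained muscles of 2 and 10 days, 39.9% to 43.9% in those of 30 days and 27.8% to 43.7% in the controls. A larger mitochondrial share leaves less of a fixed total for all other genes, and some results are also given without the division, on the values as deposited. The contralateral muscle of the first rat of 30 days had a mitochondrial share of 43.7%, the highest of the controls. The part of this share in the results below was not tested.

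All 9 genes were lower in the trained muscles after 2 days. The falls ranged from 0.44 to 1.78 on the log2 scale with a median of 0.50, against a median of -0.01 over all genes tested. The largest was that of Ucp3, whose controls had a mean of 72.7 over all days and 36.5 at 2 days. With animal as a block the 2-day value of Ucp3 was not called (given below). After 10 days, 3 of the 9 genes (Fabp3, Hadha and Hadhb) were still called lower, after 20 days no gene was called, and after 30 days Acadvl was called higher. Of all genes tested, 13.5% were called lower and 15.4% higher at 2 days, 13.3% and 15.6% at 10 days, 9.64% and 11.7% at 20 days, and 9.46% and 11.1% at 30 days. At 20 days, where 0 of the 9 passed limma's adjusted threshold, 1 gene (Acadvl) had an unadjusted p under 0.05. The 9 genes were not independent of each other, since they were measured in the same muscles.

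**Figure D1:**
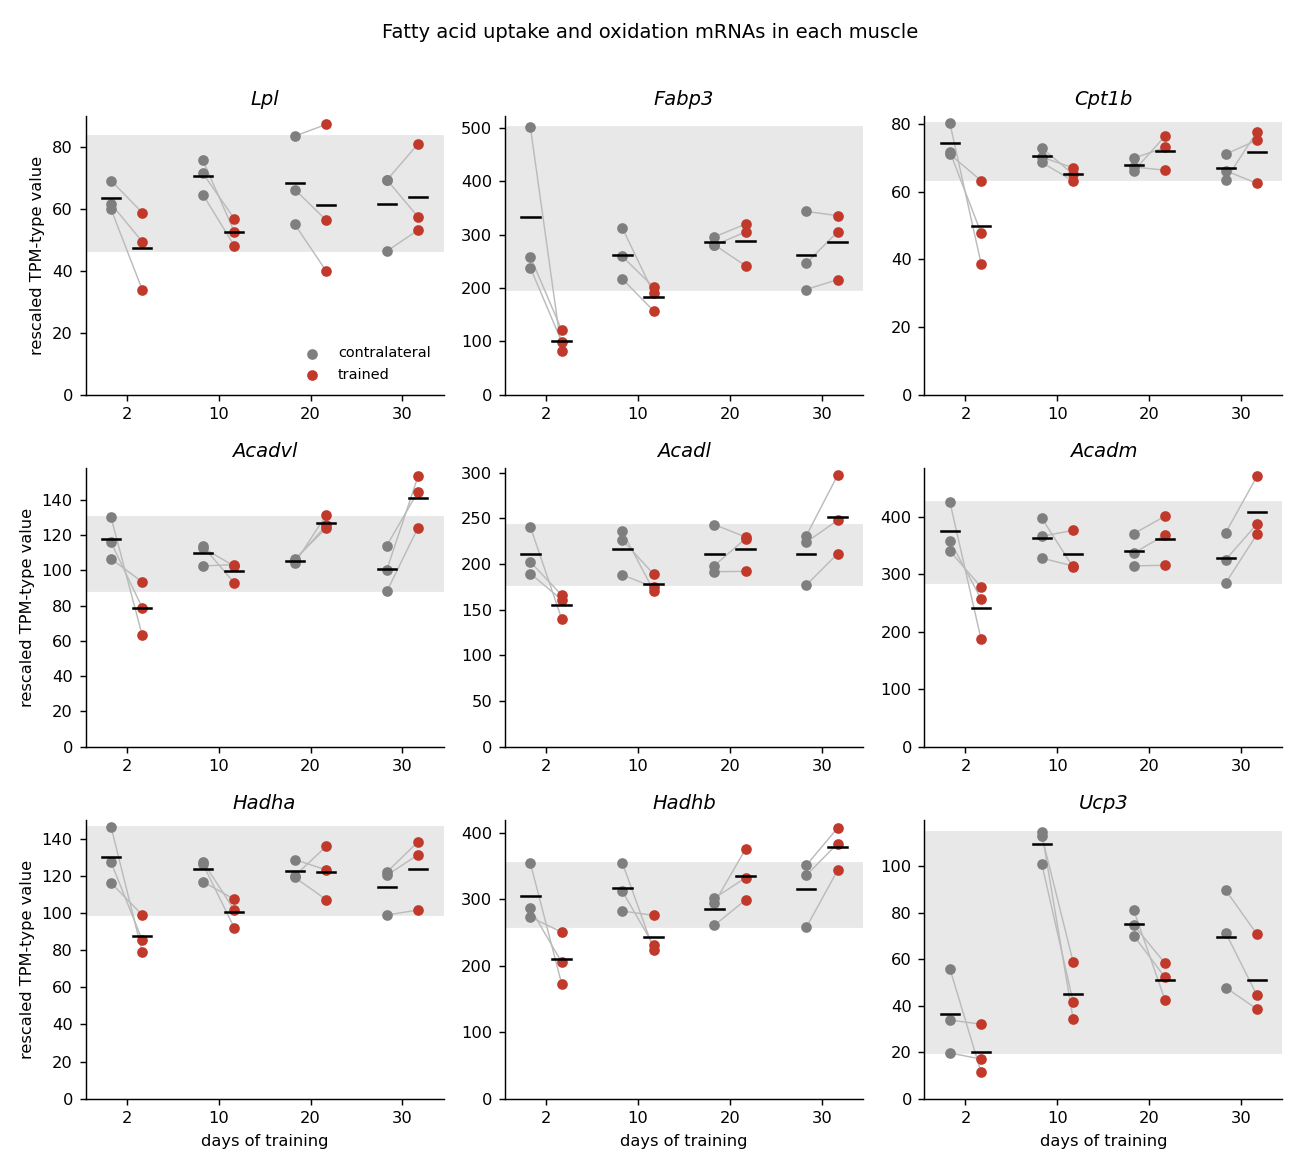
Rescaled TPM-type value of each gene in every muscle, by days of training, with contralateral muscles in grey and trained muscles in red. Thin lines join the muscles of 1 rat, black bars are the means of 3 muscles, and the shaded band is the range of the 12 controls. At 2 days the trained muscles lie under the whole band for 5 genes (Cpt1b, Acadl, Acadm, Hadhb and Fabp3). How many of all genes do so was not counted.

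Compared with its own contralateral muscle, the trained muscle was lower in 27 of 27 pairs of gene and rat at 2 days. The count was 25 of 27 at 10 days, 10 of 27 at 20 days and 6 of 27 at 30 days. These counts rest on 3 rats per time point, because the 9 genes of 1 rat are not independent. The same count over all genes was not made. At 2 days the second rat had the largest difference for every gene, from -0.78 for Acadl to -2.60 for Fabp3 on the log2 scale. The first rat had the smallest, from -0.08 for Ucp3 to -1.09 for Fabp3. Without the trained muscle of the second rat, 6 of the 9 genes were called at 2 days. The genes that lost the call were Acadl (-0.37, adjusted p = 0.0601), Acadvl (-0.33, adjusted p = 0.0533) and Lpl (-0.27, adjusted p = 0.423).

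**Figure D2:**
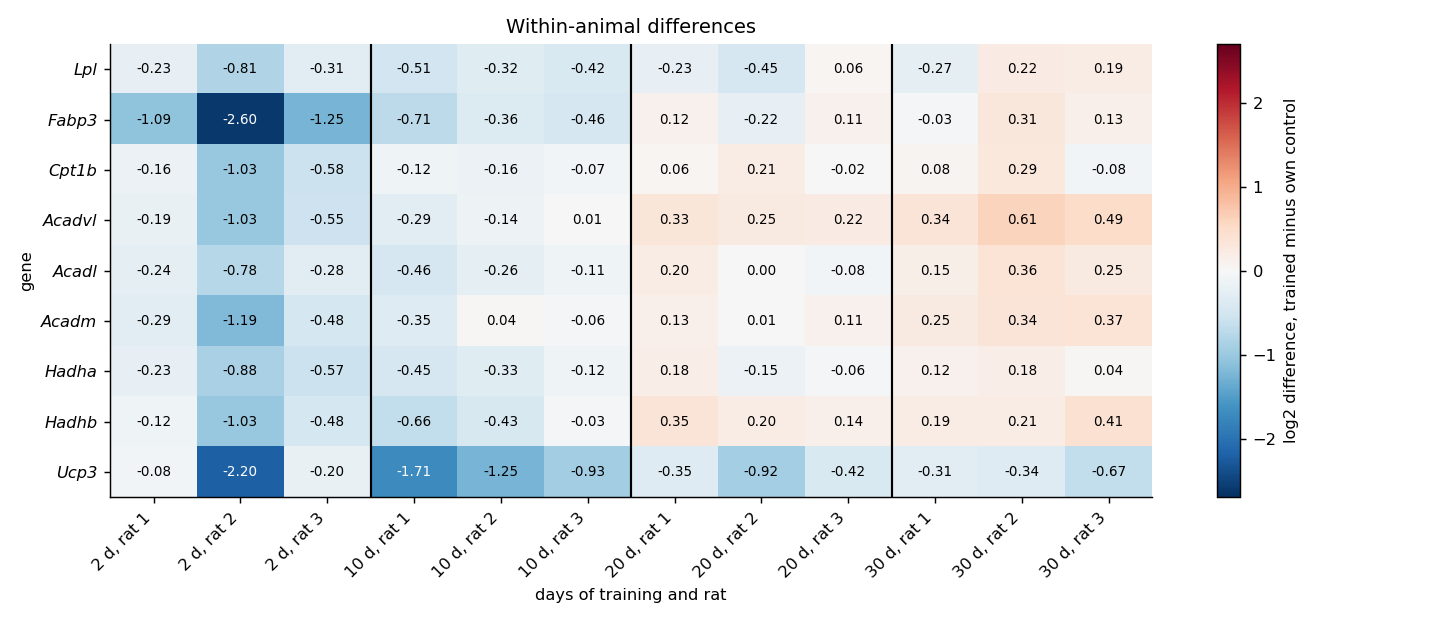
Difference on the log2(value + 1) scale between the trained muscle and the contralateral muscle of the same rat, for 9 genes (rows) and 12 rats (columns, 3 per time point). Blue is lower and red higher in the trained muscle. Every cell is below 0 at 2 days, and Ucp3 is below 0 in all 12 rats.

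Lpl, the lipase of the capillary wall, had values of 46.3, 67.6 and 83.5 (lowest, median and highest) in the 12 control muscles. In the trained muscles it was 58.8, 33.9 and 49.4 after 2 days, 52.7, 56.9 and 48.1 after 10 days, 56.4, 39.9 and 87.2 after 20 days and 57.4, 81.0 and 53.1 after 30 days. The groups overlapped at every time point, and the widest spread among trained muscles was at 20 days. Lpl fell by 0.49 ± 0.18 on the log2 scale after 2 days (adjusted p = 0.0441). This call was at the edge of the threshold: it was lost with time-matched controls (-0.45, adjusted p = 0.201), on the values as deposited (-0.38, adjusted p = 0.152) without the second (given above) or the third trained muscle (adjusted p = 0.0867), and in 8 of 12 cases when 1 control muscle was left out. The later values, -0.31, -0.16 and -0.06, did not pass. Lpl is chr16:22537056-22561497 on the minus strand of Rnor_6.0, the build of the deposited coordinates.

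Fabp3, the cytosolic carrier, had the smallest adjusted p of the 9 genes at 2 days. Control values were 197, 269.6 and 501 (lowest, median and highest), and the 2-day trained muscles held 121, 81.8 and 99.2, all below the lowest control. Their mean was 35.2% of the control mean. After 10 days the trained muscles held 190.0, 202 and 157, of which the highest lay inside the control range. After 20 days they held 305, 242 and 319.8, and after 30 days 336, 305 and 216, all inside that range. Fabp3 fell by 1.47 ± 0.19 on the log2 scale at 2 days (adjusted p = 2.86e-06) and by 0.61 ± 0.19 at 10 days (adjusted p = 0.0179). With animal as a block the 10-day value was -0.51 and was not called (adjusted p = 0.121), and it was also lost without the first (-0.64, adjusted p = 0.0534) or the third trained muscle (-0.50, adjusted p = 0.111). The later log2 fold changes were 0.05 (20 days) and 0.02 (30 days). The highest control, 501, was the contralateral muscle of the second rat at 2 days. Fabp3 is chr5:148528725-148535566 on the plus strand (Rnor_6.0).

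Beside Cd36 in the RefSeq annotation lies a related gene, Cd36l1, an older name of which is RGD1565355. The table has transcripts under RGD1565355 (for example chr4:14151343-14191499, Rnor_6.0), and they were not counted as Cd36, because reads of near-identical copies could be assigned to either. Their summed value was 68.8, 104 and 155 (lowest, median and highest) in the controls and 73.3, 40.4 and 61.6 in the 2-day trained muscles, of which the highest overlapped the controls. The log2 fold change was -0.86 at 2 days (adjusted p = 0.000565), -0.29, 0.04 and 0.41 at the later days, of which none was called.

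Cpt1b, the gate of the mitochondrion for long chains, varied least between controls relative to its mean, at 70.0 ± 4.27 (SD, n = 12). The 2-day trained muscles held 63.3, 38.8 and 47.8, all below the lowest control of 63.6, the first of them only just. After 10 days the trained muscles held 63.2, 65.2 and 67.1, after 20 days 73.1, 76.5 and 66.4, and after 30 days 75.3, 77.8 and 62.5. Except for the lowest muscle at 10 and at 30 days, these lay in the control range. Cpt1b fell by 0.50 ± 0.10 at 2 days (adjusted p = 0.000577). The log2 fold changes at the later days were -0.10, 0.04 and 0.03, and none was called. Cpt1b is chr7:130395194-130405348 on the minus strand (Rnor_6.0).

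Among the acyl-CoA dehydrogenases, Acadvl for very long chains moved through the widest range. Its controls were 88.0, 106 and 130.1 (lowest, median and highest). The trained muscles held 93.4, 63.1 and 78.7 after 2 days, 92.9, 102 and 103 after 10 days, 131, 125 and 124 after 20 days, and 145, 153 and 124 after 30 days. The trained muscles thus overlapped the bottom of the control range at 2 days, lay inside it at 10 days and overlapped its top at 20 and 30 days. Acadvl fell by 0.47 ± 0.10 on the log2 scale at 2 days (adjusted p = 0.00129). The values at 10 and 20 days were -0.12 and 0.23 (adjusted p = 0.437 and 0.12). Acadvl rose by 0.38 ± 0.10 at 30 days (adjusted p = 0.0116), with the trained muscle above its own control in 3 of 3 rats. The 30-day call depended on single muscles and on the scaling. It was lost without the first (0.35, adjusted p = 0.057) or the second trained muscle (0.31, adjusted p = 0.101), and on the values as deposited (0.15, adjusted p = 0.303), where the median of all genes moved to -0.18. Acadvl was called at 30 days with animal as a block (0.48, adjusted p = 0.0417).

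Acadl, for long chains, had control values of 177, 213 and 243 (lowest, median and highest). The 2-day trained muscles held 161, 140.0 and 166, all below the controls, and the 10-day muscles 171, 189 and 175, the second of them inside the control range. After 20 days the values were 228, 192 and 229.7, and after 30 days 248, 297 and 211, with the first and second above every control. Acadl fell by 0.44 ± 0.11 on the log2 scale at 2 days (adjusted p = 0.00353). The 30-day value, 0.24, was not called (adjusted p = 0.122).

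Acadm, for medium chains, was the most abundant of the 9 mRNAs, with 352 ± 38.3 in the controls (SD, n = 12). The 2-day trained muscles held 278, 187 and 257, all below the lowest control of 285. At 10 days the values were 313, 377 and 315, at 20 days 369, 316 and 401, and at 30 days 388, 471 and 369.9, of which 471 lay above every control. Acadm fell by 0.56 ± 0.12 on the log2 scale at 2 days (adjusted p = 0.001) and had values of -0.07, 0.04 and 0.22 at the later days, none called. Acadvl is chr10:56619303-56624527, Acadl chr9:73833388-73871889 and Acadm chr2:260124418-260148590, all on the minus strand (Rnor_6.0).

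Both subunits of the trifunctional protein were called lower at 2 and 10 days. Hadha, which carries the hydratase and hydroxyacyl-CoA dehydrogenase activities, had control values of 98.8, 121 and 146 (lowest, median and highest). It held 98.97, 78.9 and 85.4 in the trained muscles of 2 days, 92.1, 102 and 107 at 10 days, 136, 107 and 123 at 20 days and 131, 138 and 102 at 30 days. The first muscle at 2 days overlapped the controls, and all muscles of 20 and 30 days lay in the control range. Hadha fell by 0.48 ± 0.10 on the log2 scale at 2 days (adjusted p = 0.00125) and by 0.28 ± 0.10 at 10 days (adjusted p = 0.0446), and its later values were -0.01 and 0.01.

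Hadhb, the thiolase subunit, had control values of 258, 298 and 355. It held 251, 173 and 205 at 2 days, all below the controls, and 224, 231 and 276 at 10 days, the last inside the control range. The values were 376, 299 and 332 at 20 days and 384, 407 and 344 at 30 days, with 1 muscle of 20 days and 2 of 30 days above every control. Hadhb fell by 0.55 ± 0.12 at 2 days (adjusted p = 0.000988) and by 0.32 ± 0.12 at 10 days (adjusted p = 0.0406). Its 30-day value, 0.31, missed the threshold (adjusted p = 0.0595). Neither subunit was called at 10 days with animal as a block (Hadha -0.30, adjusted p = 0.128, and Hadhb -0.38, adjusted p = 0.118). The 10-day calls of both were also lost without the first or the second trained muscle, where Hadha was -0.22 and -0.29 and Hadhb -0.27 and -0.29, and that of Hadha without the third (-0.33, adjusted p = 0.0557). Leaving out 1 control muscle ended the 10-day call in 8 of 12 cases for Hadha and in 5 of 12 for Hadhb.

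The ratio of the Hadha to the Hadhb value was 0.404 ± 0.0353 in the controls (SD, n = 12). In the trained groups (n = 3 each) it was 0.422 ± 0.0316 after 2 days, 0.414 ± 0.0254 after 10 days, 0.363 ± 0.00644 after 20 days and 0.326 ± 0.0260 after 30 days. The contralateral muscles of 30 days had the lowest mean ratio of the 4 control groups, 0.363 ± 0.0185. A ratio within a muscle does not depend on the scaling. It was described here and not tested.

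Hadha (chr6:27589657-27629176, plus strand) and Hadhb (chr6:27555412-27582996, minus strand) lie head to head in the deposited Rnor_6.0 coordinates. In RefSeq on build GRCr8 their starts lie 301 bases apart, and promoter windows running from 250 bases before to 50 bases after each start share 200 bases. The shared stretch, chr6:31907551-31907750 of GRCr8, is printed on the plus strand, the direction of Hadha, because both genes are read outward from it.
Hadha and Hadhb: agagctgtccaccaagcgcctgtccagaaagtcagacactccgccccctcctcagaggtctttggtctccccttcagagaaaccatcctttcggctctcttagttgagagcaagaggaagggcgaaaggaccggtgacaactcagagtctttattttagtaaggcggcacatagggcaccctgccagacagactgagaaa
The stretch is all in lower case because the motif searched, the nuclear receptor core site AGGTCA on either strand, has no match there. It is the sequence to which receptors such as the PPARs, RXR and the ERRs bind. Of 33469 RefSeq rat windows of 300 bases, 16.2% hold it, and 3 of the 7 windows found for the 10 genes hold it (Acadvl, Ucp3 and Hadhb). The window of Hadhb has it 43 bases after the start. The windows of Acadm, Fabp3, Hadha and Cd36 do not hold it, and Cpt1b, Acadl and Lpl have no window here. The longer TCAAGGTCA, which contains AGGTCA and is the ERR-type site, is in 0.433% of all windows. A pair of core sites in the same direction with 1 base between them, the PPAR-type site AGGTCANAGGTCA, is in 0.0538%. None of the 7 windows holds either of these sites in exactly these letters. At such low shares a match in 7 windows would be rare, so the lack of one says little. Forms of the sites with other letters were not searched.

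The 250 bases before the start of Acadvl are shown because this gene was the one called higher at 30 days, and they are printed in the direction of the gene (chr10:55236706-55236955, minus strand, GRCr8) with the core sites in capitals. The same stretch of Ucp3, the gene with the largest fall at 2 days against the pooled controls, follows (chr1:164227660-164227909, plus strand, GRCr8).
Acadvl: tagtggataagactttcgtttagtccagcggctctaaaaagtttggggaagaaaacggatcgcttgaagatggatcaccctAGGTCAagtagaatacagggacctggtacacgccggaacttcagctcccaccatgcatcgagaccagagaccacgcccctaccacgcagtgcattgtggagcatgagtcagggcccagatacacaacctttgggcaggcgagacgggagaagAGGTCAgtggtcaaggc
Ucp3: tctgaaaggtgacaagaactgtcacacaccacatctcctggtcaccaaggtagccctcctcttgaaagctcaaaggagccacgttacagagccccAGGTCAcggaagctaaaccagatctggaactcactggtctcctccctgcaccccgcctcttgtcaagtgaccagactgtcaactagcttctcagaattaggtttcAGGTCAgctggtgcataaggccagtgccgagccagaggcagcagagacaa
Acadvl has the core site at 169 and 17 bases before the start, and Ucp3 at 155 and 50 bases before it, all on the strand of the gene. A match in these letters is a description and not a binding site shown in these muscles.

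Ucp3 was the member that varied most, and it did so in the control muscles too. The contralateral muscles held 33.9, 56.0 and 19.7 at 2 days, 115, 101 and 113 at 10 days, 74.7, 81.0 and 70.1 at 20 days and 47.8, 89.7 and 71.3 at 30 days. The controls of 2 and 10 days did not overlap. The trained muscles held 32.1, 11.4 and 17.1 at 2 days, 34.4, 41.7 and 58.9 at 10 days, 58.2, 42.5 and 52.2 at 20 days, and 38.5, 70.8 and 44.5 at 30 days. Each of the 12 trained muscles was below the control of the same rat. Against the pooled controls Ucp3 fell by 1.78 ± 0.37 on the log2 scale at 2 days (adjusted p = 0.000828) and was at -0.57 at 10 days (adjusted p = 0.273).

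The order of these values turned around with animal as a block. The 2-day value of Ucp3 became -0.83 and was no longer called (adjusted p = 0.0718), and the 10-day value became -1.30 and was called (adjusted p = 0.00921). Controls of the same day gave the same values, as they must with complete pairs, so they are no second estimate. Only the error differs, with adjusted p = 0.0913 and 0.00952. At 20 and 30 days the log2 values against the pooled controls were -0.37 and -0.40, neither called. Ucp3 is chr1:165482155-165496207 on the plus strand (Rnor_6.0).

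Differences between the controls of the 4 days were tested with a limma F test on the 12 contralateral muscles. Of 10517 genes, 0.0666% were called, and none of the 9 genes described here was among them. At an unadjusted p under 0.05 there were 1153 of the 10517 genes. Of the 9, Ucp3 was the 1 gene under it (unadjusted p = 0.000919, adjusted p = 0.185). For the other 8 genes the unadjusted p lay between 0.331 (Acadvl) and 0.989 (Acadl). With 3 muscles per day the test can miss differences, so the few calls do not show that the controls can be pooled.

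The trained muscles of 30 and 2 days were also compared with each other directly. At 30 days 7 of the 9 genes were called higher than at 2 days, against 7.07% of all genes called higher and 7.91% called lower. Fabp3 rose by 1.49 ± 0.24 on the log2 scale (adjusted p = 0.000249), Hadhb by 0.86 ± 0.15 (adjusted p = 0.000436) and Acadvl by 0.85 ± 0.13 (adjusted p = 0.000179). Acadm rose by 0.78, Acadl by 0.68, Cpt1b by 0.54 and Hadha by 0.48, with adjusted p values from 0.00126 to 0.0146. Ucp3 had a difference of 1.37, with a 95% interval of 0.40 to 2.35, and missed the threshold (adjusted p = 0.0505). With animal as a block its difference was 0.39, with an interval of -0.55 to 1.32 (adjusted p = 0.69). Lpl had a difference of 0.43, with an interval of -0.04 to 0.91 (adjusted p = 0.213).

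This contrast holds what differs between the rats of 2 groups as well as between days. With animal as a block, which compares the differences between the limbs, 3 of the 9 genes were called: Fabp3, Acadm and Acadvl. The adjusted p was then 0.0616 for Acadl, 0.0678 for Hadha, 0.0696 for Hadhb and 0.0857 for Cpt1b. On the values as deposited, where the median of all genes moved to -0.27, 4 were called, namely Acadm, Acadvl, Hadhb and Fabp3. Without the trained muscle of the second rat at 2 days, 5 were called.

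Against 10 days, 3 of the 9 genes were called higher at 30 days, with 1.65% of all genes called higher and 2.29% lower. Hadhb rose by 0.64 ± 0.15 (adjusted p = 0.0182), Acadvl by 0.49 ± 0.13 (adjusted p = 0.0365) and Acadl by 0.49 ± 0.14 (adjusted p = 0.0482). The difference for Fabp3, 0.62, did not pass (adjusted p = 0.144), and those of the other 5 genes lay between 0.13 and 0.29. None of the 9 was called with animal as a block, with time-matched controls, on the values as deposited, or without the second trained muscle of 30 days, or without the first or the second of 10 days.

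At 30 days the direction of the genes near 0 changed with the scaling. Without the division by factors, where the median of all genes was -0.18, Cpt1b was -0.19, Hadha -0.21, Fabp3 -0.21 and Acadm -0.01. The authors also deposited a table of 4635 genes on a scale of its own, in which the median of all genes at 30 days was -0.35. There 63.0% of all genes were called lower, and 4 of the 9 genes were: Cpt1b (-0.41), Hadha (-0.40), Fabp3 (-0.43) and Lpl (-0.46), and Acadvl was -0.08. Read against that median, Acadvl lay above it and the 4 called genes close below it. The 2-day direction was the same under every alternative for all 9 genes. Hadhb, Fabp3 and Ucp3 were the 3 called at 2 days in that second table, where the median of all genes was 0.11.

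**Figure D3:**
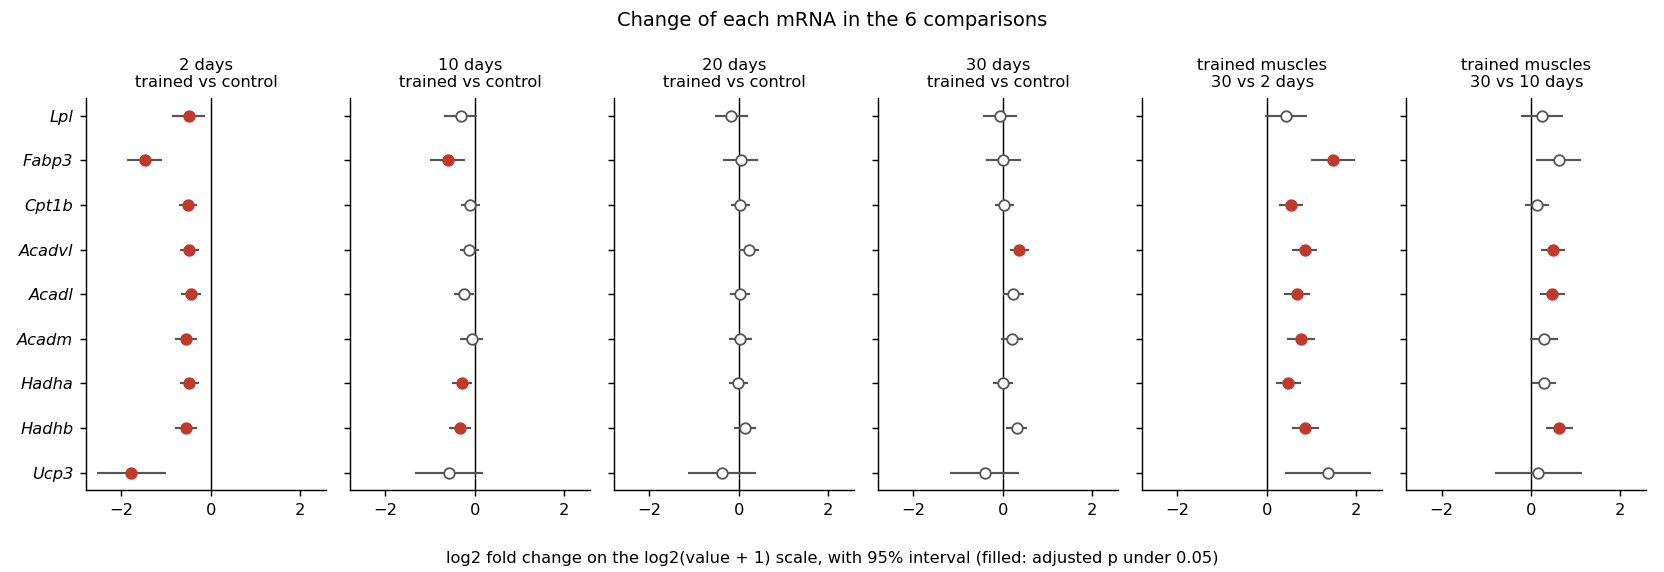
Log2 fold change of each gene on the log2(value + 1) scale with its 95% interval, for trained against contralateral muscles at 4 time points and for trained muscles of 30 days against those of 2 and 10 days. Filled points have an adjusted p under 0.05: 9 genes at 2 days, 3 at 10 days, 0 at 20 days, 1 at 30 days, and 7 and 3 in the direct contrasts.

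Other genes of the same pathway are described list by list. Over all genes tested, 13.5%, 13.3%, 9.64% and 9.46% were called lower at the 4 time points and 15.4%, 15.6%, 11.7% and 11.1% higher. The counts of the lists were not tested against these shares. Among the genes of the carnitine shuttle and malonyl-CoA, 7 of 9 were called lower at 2 days, with a median log2 fold change of -0.49. At 10 days 4 were called lower and 1 higher, and at 20 and at 30 days 1 was called lower. The calls lower on the values as deposited were 6 at 2 days and 3 at 30 days. At 30 days all genes were shifted lower on those values, with a median of -0.18 and 20.0% of all calls higher. Cpt2, which turns acylcarnitines back into acyl-CoA inside the mitochondrion, fell by 0.70 at 2 days (adjusted p = 1.68e-05) and by 0.60 at 10 days (adjusted p = 8.43e-05). Acacb, which makes the malonyl-CoA that inhibits Cpt1b, fell by 0.69 at 2 days, and Mlycd, which removes malonyl-CoA, fell by 0.60. Slc22a5, the carnitine carrier of the cell membrane, was the gene called at all 4 time points, with falls of 0.49, 0.60, 0.41 and 0.46.

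The other enzymes of mitochondrial beta-oxidation had 12 of the 15 genes in the table (16 listed) called lower at 2 days and 0 higher, with a median of -0.63. At an unadjusted p under 0.05, 14 were lower and 0 higher, and 9 were called lower on the values as deposited. The calls were 5 lower at 10 days, 3 at 20 days and 5 at 30 days, and 0 were higher at each (3 were higher at 30 days at an unadjusted p under 0.05). Hadh, the dehydrogenase for shorter chains, fell by 0.88 at 2 days (adjusted p = 2.58e-05), and Etfdh, which hands the electrons to ubiquinone, by 0.84. Neither was called at 20 or 30 days. Echs1, the short-chain hydratase, fell by 0.74, 0.94, 0.48 and 0.44 at the 4 time points. Acadsb and Acad11 were also called lower at all 4. Acadsb, a dehydrogenase for branched chains, held 15.8 ± 3.10 in the controls and means of 8.86, 6.78, 6.47 and 7.004 in the trained groups, and Acad11 fell by 0.91, 0.69, 0.46 and 0.59. Acads, for short chains, fell by 0.53 at 30 days (adjusted p = 0.0294). At 30 days Acadvl was called higher and Acads, Acadsb, Acad10, Acad11 and Echs1 were called lower.

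The list of fatty acid transport and activation went the other way from 10 days on. At 2 days 1 of its 11 genes was called lower and 2 higher, and at 10, 20 and 30 days 5, 6 and 6 were called higher and 0 lower (1, 0 and 0 at an unadjusted p under 0.05). Fabp5, a binding protein found in many cell types, rose by 0.87, 0.97, 1.07 and 0.87 at the 4 time points. Fabp4, the binding protein of adipocytes and capillary endothelium, had a mean of 119 ± 21.99 in the controls (SD, n = 12) and 101.5, 179, 186 and 174 in the trained groups, and rose by 0.60, 0.66 and 0.56 at 10, 20 and 30 days. Dbi, which binds acyl-CoA, rose by 0.50, 0.58 and 0.72 at those days. Acsl1, the main acyl-CoA synthetase of muscle, fell by 0.68 at 2 days (adjusted p = 0.000115) and was not called later, while Acsl6 rose by 0.61 at 30 days (adjusted p = 0.000365). At 30 days 3 genes of this list were called higher on the values as deposited.

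Of 13 partners of lipoprotein lipase and genes of lipolysis, 6 were called lower and 1 higher at 2 days. At 10, 20 and 30 days 13.3%, 9.64% and 9.46% of all genes were called lower and 15.6%, 11.7% and 11.1% higher. In this list the calls at those days were 3 lower and 2 higher, 2 and 2, and 1 and 2. The calls lower at 2 days included G0s2, an inhibitor of adipose triglyceride lipase, at -1.25, Angptl4, a secreted inhibitor of lipoprotein lipase, at -1.20 from a low control mean of 1.93, and Plin4, a coat protein of lipid droplets, at -1.02. Plin5, which tethers droplets to mitochondria, fell by 0.97, 0.91 and 0.85 at 2, 10 and 20 days. Plin2, another coat protein of droplets, rose by 0.87, 0.90, 0.80 and 0.46 at the 4 time points. Gpihbp1, which holds Lpl at the capillary, rose by 0.75 at 10 days and by 1.33 at 20 days, when Lpl itself was not called. At 30 days Gpihbp1 was at 0.77 and missed the threshold (adjusted p = 0.0517). The 30-day split on the values as deposited was 3 lower and 0 higher. On those values the median of all genes was -0.18, and 20.0% of all calls were higher. The split was not tested against this shift of all genes.

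In peroxisomal beta-oxidation 6 of 9 genes were called lower at 2 days and 1 at each later day. Ehhadh, the bifunctional enzyme, was that gene each time, with falls of 0.66, 0.67, 0.49 and 0.44. At 2 days 3 genes were called lower on the values as deposited. In the short list of uncoupling and pyruvate switch genes, Pdk4, the kinase that turns off pyruvate dehydrogenase, rose by 1.09 at 10 days (adjusted p = 0.0324), and Pdk2 fell by 0.35 and 0.47 at 2 and 10 days. Neither call of Pdk2 was made on the values as deposited. Ucp2 was not called against the controls at any day.

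**Figure D4:**
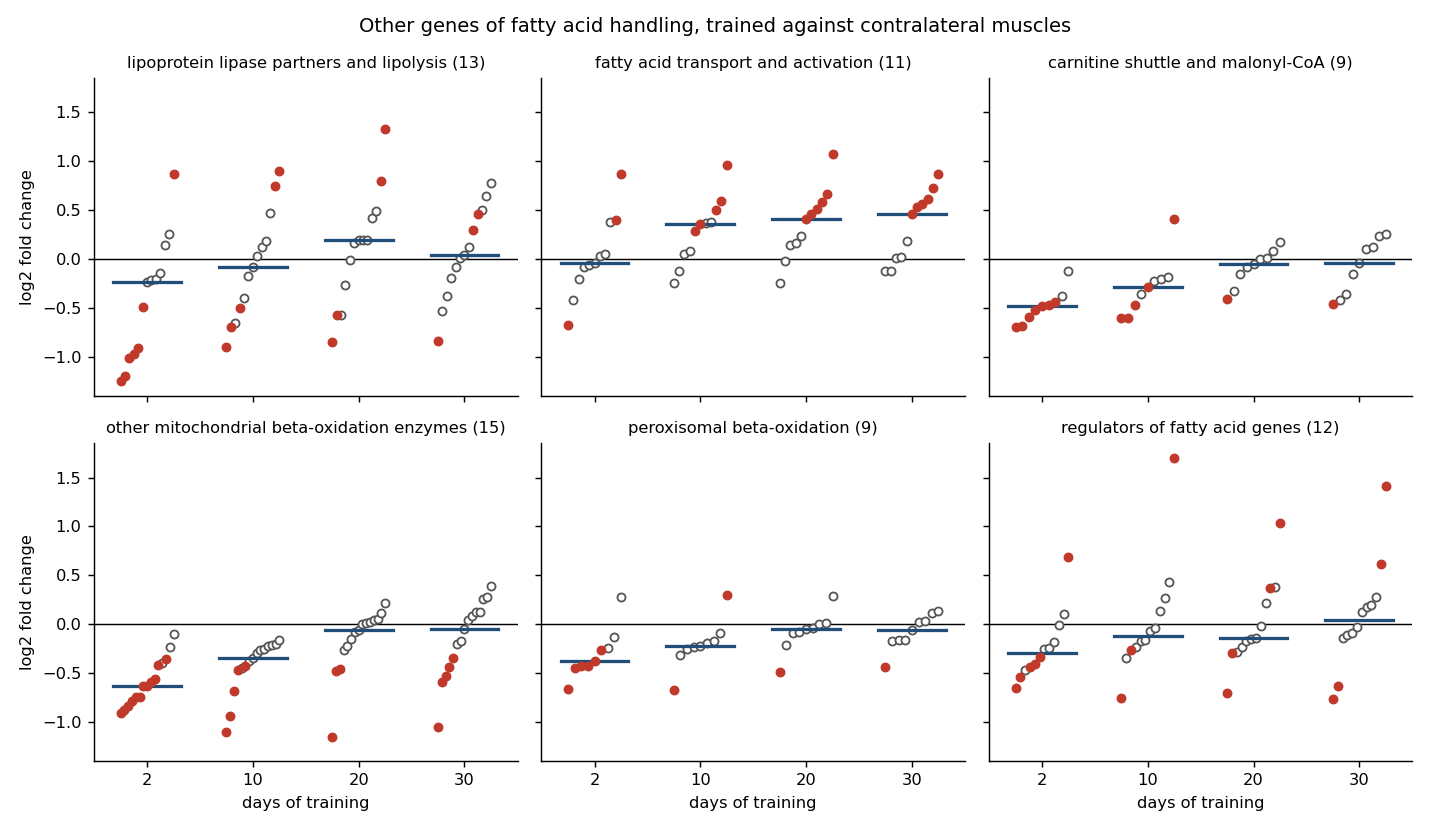
Log2 fold change on the log2(value + 1) scale of the other genes of fatty acid handling in trained against contralateral muscles, by list and days of training, with the number of genes tested in brackets. Each point is a gene, filled where the adjusted p was under 0.05, and blue bars are medians. The median of the other mitochondrial enzymes goes from -0.63 at 2 days to -0.05 at 30 days, and that of transport and activation from -0.04 to 0.47.

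Of 12 regulators, Ppargc1a, the coactivator of mitochondrial and fatty acid genes, rose at every time point, by 0.69, 1.70, 1.03 and 1.41. Its mean was 3.14 ± 0.904 in the controls (SD, n = 12) and 5.78, 13.0, 7.40 and 9.88 in the trained groups. Rxra, the partner of the PPARs on DNA, fell at each, by 0.65, 0.76, 0.71 and 0.77. Perm1, a muscle protein that acts with Ppargc1a and the ERRs, fell by 0.44 at 2 days (adjusted p = 0.0118) and rose by 0.37 at 20 days (adjusted p = 0.0433) and by 0.62 at 30 days (adjusted p = 0.00134). Ppard, the PPAR most abundant in these muscles, fell by 0.41 at 2 days (adjusted p = 0.0325) and by 0.63 at 30 days (adjusted p = 0.00274). Ppara, Pparg, Esrra and Esrrg were not called at any day. Ncor1, a corepressor of nuclear receptors, fell by 0.34, 0.26 and 0.29 at 2, 10 and 20 days. At 2 days 5 of the 12 were called lower and 1 higher, and on the values as deposited 0 and 1. The calls were 2 lower and 1 higher at 10 days (1 and 1 as deposited). They were 2 and 2 at both 20 days (1 and 1 as deposited) and 30 days (3 and 2 as deposited). The 30-day counts as deposited include the shift of all genes on those values (median -0.18).

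Over the 24 muscles, each of the 9 genes followed the mean of the standardized log2 values of the other 8, with Pearson r from 0.626 (Ucp3) and 0.694 (Lpl) to 0.923 (Hadha) and 0.925 (Acadm). Outside the set the 5 genes most like its mean were Hsdl2 (r = 0.962), Hadh (0.948), Phyh (0.946), Acsl1 (0.945) and Ndufa10l1 (0.937). These values describe muscles that share the training groups and the scaling, and they were not tested.

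Markers of other cells and fibers moved with the groups. As the muscles were measured whole, fewer cells of a type and less RNA per cell cannot be told apart. The summed value of 7 slow fiber markers was 760 to 1158 in the trained muscles of 2 days and 1214 to 2450 in the controls. At 2 days 4 of the 7 were called lower, against 13.5% of all genes (2 and 6.49% on the values as deposited). The sum was 636 to 1946 at 10 days, 1214 to 1489 at 20 days and 980.4 to 1749 at 30 days. The sum of 8 macrophage markers was 26.2 to 64.9 at 2 days and 30.2 to 67.6 at 10 days, against 9.08 to 24.7 in the controls, and 39.2 to 46.7 and 37.0 to 50.6 at 20 and 30 days. The sum of 5 fibroblast markers was 301 to 495, 518 to 982, 562 to 614 and 355 to 416 at the 4 time points, against 74.7 to 253 in the controls. Their part in the changes of the 9 genes was not tested.

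The sum of the 7 endothelial markers in the table was 35.0 to 49.1 at 2 days, 50.6 to 90.5 at 10 days, 71.2 to 89.0 at 20 days and 52.4 to 68.0 at 30 days, against 36.7 to 55.7 in the controls. Gpihbp1 is one of these markers. The sum of 7 adipocyte markers was 106 to 122 at 2 days, 180.0 to 223 at 10 days, 185 to 220.0 at 20 days and 167 to 218 at 30 days, against 89.2 to 188 in the controls. Fabp4 made up most of it: without Fabp4 the sum was 12.4 to 22.9 in the 12 trained muscles and 4.84 to 16.2 in the controls. Of the 7 markers, 3 were under 1 in every control. At 10, 20 and 30 days Cfd (0.98, 1.18 and 0.74) and Fabp4 were called higher, 2 of the 5 markers tested. Of all genes, 15.6%, 11.7% and 11.1% were called higher at those days. On the values as deposited, 3, 2 and 0 genes of this list were called higher. The defining adipocyte marker Adipoq had a control mean of 3.03 and missed the threshold at 30 days (0.73, adjusted p = 0.0556). The 5 red blood cell markers had 0 calls at every day, with 0 at an unadjusted p under 0.05.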

How the data were processed

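Poly-A RNA of the tibialis anterior muscles of both hind limbs of 12 rats was sequenced as directional paired-end libraries (24 muscles, Illumina NextSeq). By the study's methods and the submitters' processing notes, reads were trimmed and aligned to Rnor_6.0 (rn6) with STAR in Partek, and quantified to Ensembl transcripts, and DESeq2 is named among the tools. The main table that the authors deposited holds values of the TPM type for 20027 transcripts, each muscle scaled to the same total. Depth, and the precision it would give, cannot be read from these values. The study's methods give a lower bound for the reads per sample. A second table deposited by the authors holds a scaled signal for 4635 genes and was used as an alternative only. The p-values, ratios and fold changes of the authors' own comparisons were not used.

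Transcript values were summed per gene (15273 genes), rescaled per muscle by the median of ratios (factors of 0.778 to 1.137, from 16230 transcripts above 0 in every muscle) and taken as log2(value + 1). Genes at 1 or more in at least 3 muscles (11196) entered a limma fit (version 3.58.1, R 4.3.3) with 12 contralateral muscles as 1 group and 4 trained groups of 3. P-values were adjusted by the Benjamini-Hochberg method, with a threshold of 0.05. Both limma fits were tested on simulated data. Python 3.11.15, pandas 2.3.3, numpy 2.4.6 and matplotlib 3.10.9 were used for tables and figures. No pair of the 276 pairs of libraries held identical values.

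Muscles of 1 rat share a number in the labels. Their deviations from the group means correlated with a median r of 0.174 over 12 pairs (8 over 0.1), against -0.00964 between rats, and a fit with animal as a block was an alternative. Other alternatives were time-matched controls, the values as deposited, other factors, pseudocount and filter, single transcripts, an unadjusted p under 0.01, and each muscle left out in turn.

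The genes and all lists were chosen with earlier results of these data known. From each pathway list, the genes past the threshold with the largest changes were named, at most 3 per list and time point, with the 5 genes most like the mean of the set over 24 muscles. Other genes named from the lists were chosen after their values were seen. Reads of near-identical gene copies could be split between them by the quantification. Promoter sequences came from RefSeq (GRCr8), which found 7 of the 10 genes by symbol.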

Additional observations from a re-analysis of the deposited data

Results flagged for a closer look

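The level of 7 genes differed between the trained muscles of 30 and 2 days when these were compared directly with limma (3 muscles each). This contrast holds no contralateral muscles, so it compares levels and not responses to training. The differences on the log2(value + 1) scale, 30 minus 2 days, were 0.54 for Cpt1b, 0.68 for Acadl, 0.78 for Acadm, 0.85 for Acadvl, 0.48 for Hadha, 0.86 for Hadhb and 1.49 for Fabp3. With animal as a block, which sets the limbs of each rat against each other, the differences for Acadm, Acadvl and Fabp3 were called and those for the other 4 were not. For 3 genes the trained muscles of 30 days were also above those of 10 days, by 0.49 for Acadl, 0.49 for Acadvl and 0.64 for Hadhb, and none of these was called with the block. The share of mitochondrial mRNA moved with these contrasts, at 39.9% to 43.9% in the trained muscles of 30 days and 24.9% to 28.5% in those of 2 days. With equal totals without mitochondrial mRNAs, 7 genes were called higher at 30 than at 2 days and 3 at 30 than at 10 days. These totals and the main factors put the median of all genes alike near 0 (0.005 and -0.006 for 30 minus 2 days). The like counts are therefore no test of the share, and its part in these contrasts was not tested.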

How the results depend on the processing

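The 9 genes were lower at 2 days under every alternative, but the number called, 9, became 3 in the authors' gene-level table and 3 with animal as a block on the values as deposited. At 10 days the 3 calls became 1 with animal as a block, with that block on the values as deposited, with time-matched controls (with and without the first control of 30 days), on the values as deposited and at an unadjusted p under 0.01, and 0 in the gene-level table. With the block and with time-matched controls that call was Ucp3. At 30 days the 1 call became 2 with equal totals without mitochondrial mRNAs (Hadhb added), 0 on the values as deposited, 0 with animal as a block on them, and 4, all lower, in the gene-level table, where 63.0% of all genes were called lower. For 30 against 2 days the 7 calls became 3 with animal as a block, 4 with time-matched controls, 3 with these less the first control of 30 days, 4 on the values as deposited, 1 with animal as a block on them and 1 in the gene-level table. For 30 against 10 days the 3 calls became 0 with animal as a block, 0 with it on the values as deposited, 0 with time-matched controls with and without the first control of 30 days, 0 on the values as deposited, and 3, all lower, in the gene-level table, where 75.7% of all genes were called lower. The cause was not tested. The block changed no other call of the 9 genes than those given here and beside the results.

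With 1 muscle left out in turn, the number called ranged from 0 to 3 at 10 days, 0 to 2 at 30 days and 0 to 3 for 30 against 10 days. The 2 calls at 30 days were Acadvl and Hadhb, without the second control muscle of 2 days, the first of 10 days or the second of 30 days. For 30 against 2 days, Ucp3 was called without the first trained muscle of 2 days (1.76, adjusted p = 0.0177), while its difference with animal as a block was 0.39. Values near 0 turned sign in some of these fits. Their ranges were, at 20 days Acadl (-0.013 to 0.115), Acadm (-0.037 to 0.135), Cpt1b (-0.004 to 0.097), Fabp3 (-0.031 to 0.169), Hadha (-0.086 to 0.083) and Lpl (-0.453 to 0.101), at 30 days Cpt1b (-0.026 to 0.130), Fabp3 (-0.113 to 0.205), Hadha (-0.079 to 0.142) and Lpl (-0.239 to 0.060), and at 30 against 10 days Ucp3 (-0.084 to 0.377). None of them was called in the comparison as reported.

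The median of all genes at 2, 10, 20 and 30 days was 0.07, 0.07, -0.03 and -0.18 on the values as deposited and 0.11, 0.12, -0.09 and -0.35 in the gene-level table. For 30 against 2 and 10 days it was -0.27 and -0.27, and -0.48 and -0.49. The share of all calls that were higher went from 53.4%, 53.9%, 54.9% and 54.0% at the 4 time points to 74.5%, 75.4%, 61.0% and 20.0% on the values as deposited, and for the 2 direct contrasts from 47.2% and 42.0% to 7.59% and 2.37%. Under other alternatives these values turned sign. Turned at 10 days on the values as deposited were Cpt1b (0.020), Acadm (0.051) and Acadvl (0.004). Turned at 30 days on the values as deposited were Cpt1b (-0.187), Acadm (-0.006), Hadha (-0.215) and Fabp3 (-0.207). Turned at 30 against 10 days on the values as deposited were Cpt1b (-0.207), Acadm (-0.057), Hadha (-0.052), Lpl (-0.085) and Ucp3 (-0.168). Those at 10 days in the gene-level table were Cpt1b (0.141), Acadm (0.170) and Acadvl (0.126). Those at 20 days in the gene-level table were Cpt1b (-0.019), Acadl (-0.026), Acadm (-0.019) and Fabp3 (-0.013). Those at 30 days in the gene-level table were Cpt1b (-0.406), Acadl (-0.191), Acadm (-0.232), Acadvl (-0.078), Hadha (-0.399), Hadhb (-0.137) and Fabp3 (-0.426). Those at 30 against 2 days in the gene-level table were Cpt1b (-0.105), Hadha (-0.146) and Lpl (-0.191). Those at 30 against 10 days in the gene-level table were Cpt1b (-0.547), Acadl (-0.190), Acadm (-0.402), Acadvl (-0.205), Hadha (-0.364), Hadhb (-0.064), Fabp3 (-0.075), Lpl (-0.396) and Ucp3 (-0.486). The block on the values as deposited turned, at 20 days, Cpt1b (-0.006), Acadl (-0.049), Acadm (-0.007) and Fabp3 (-0.082). The block on the values as deposited turned, at 30 days, Cpt1b (-0.026) and Hadha (-0.007). At 20 days, equal totals without mitochondrial mRNAs turned Hadha (0.023). At 30 days, animal as a block turned Lpl (0.049). At 30 days, time-matched controls turned Lpl (0.049). At 30 days, time-matched controls less the first control of 30 days turned Lpl (0.144).

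Over all genes, calls at 2 days numbered 3235, and 1344 in the gene-level table, 1791 with animal as a block on the values as deposited and 1492 without the second trained muscle. At 10 days they numbered 3240, and 1056 and 1685 under the first 2 of these, 2007 with time-matched controls and 2130 without the first trained muscle. At 20 days they numbered 2393, and 729, 1388 and 1589. At 30 days they numbered 2304, and 1377 with animal as a block, 838 with it on the values as deposited, 1121 with time-matched controls, 3056 in the gene-level table, and 1469 and 1491 without the second and the third trained muscle. For 30 against 2 days they numbered 1677, and 314 with the block, 289 with time-matched controls, 3294 as deposited, 3108 in the gene-level table and 715 without the second trained muscle of 2 days. For 30 against 10 days they numbered 441, and 9, 4, 2071 and 3528 under those 4, 282 with a pseudocount of 0.1, and 105 to 287 without 1 of 5 trained muscles. With 3 trained muscles per day and values that keep no depth, these values limit how small a change could be called.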
